A study of Homo sapiens with 20 samples.

Results

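Read counts of 47 genes that encode the repressive chromatin machinery were followed in BEAS-2B cells, a line of immortalised human bronchial epithelial cells, during and after exposure to nickel chloride. The genes were taken by name from the per-library counts of 25411 RefSeq genes, and all 47 were found. They comprise 10 genes of Polycomb repressive complex 2 (PRC2), 15 of Polycomb repressive complex 1 (PRC1), 9 that write or read methylation of histone H3 at lysine 9 (the H3K9 group), 4 of DNA methylation (DNMT) and 9 deacetylases (HDAC). The 20 libraries of total RNA fall into 7 groups. Ni_3D (n = 2) is labelled as nickel-exposed for 3 days, Ni_3D+14D (n = 2) as the same exposure with 14 further days, and Control_3D (n = 4) is its control. Ni_6W (n = 2) is labelled as exposed for 6 weeks, and Ni_6W+2W (n = 2) carries the same label with 2 further weeks. Per the labels' protocol those 2 weeks were spent in medium without nickel after washing. Ni_clone (n = 6) stands for 6 clones with a single library each, which the protocol describes as single colonies picked from cells exposed for 6 weeks at a labelled 100 mM of nickel chloride and grown out in nickel-free medium. That unit is printed as the labels give it, may have lost a micro sign and could not be checked here. Control_6W (n = 2) is the control of the 6-week groups and was also used here for the clones. All groups are the same cell line, and the labels name no genetic change. The concentrations used for the groups that are not clones are not given by the labels, nor is any cloning of the control cells. Nothing in the labels ties replicates to separate cultures. The p-values therefore cover only how far these libraries spread, which may be technical. In the groups after exposure, past nickel and the added time, washing or cloning cannot be told apart.

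PRC2 methylates histone H3 at lysine 27 through EZH2 or its relative EZH1, and PRC1, built around the ubiquitin ligases RING1 and RNF2 and a PCGF subunit such as BMI1, binds that mark through CBX proteins and compacts chromatin. EHMT1, EHMT2, SUV39H1, SUV39H2 and SETDB1 methylate H3 at lysine 9, which the HP1 proteins CBX1, CBX3 and CBX5 bind, while the DNMT enzymes methylate cytosine in DNA and HDACs and sirtuins take acetyl groups off histones. Nickel ions are known to inhibit iron-dependent dioxygenases, among them histone lysine demethylases and the prolyl hydroxylases that mark the hypoxia-inducible factor HIF for destruction.

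Of the 47 genes, 3 passed the test in at least 1 comparison: BMI1, CBX7 and HDAC4. Their promoters are shown because the results below turn on these genes. The sequences are those of RefSeq on GRCh38.p14, from 250 bases before to 50 bases after the most upstream annotated start. They are written 5′ to 3′ on the gene's strand, and HDAC4 has other annotated starts as well. Capitals mark ACGTG or GCGTG, core letters of the hypoxia response element bound by HIF, on either strand, so that a CACGTG holds a match on each strand. The BMI1 promoter lies at chr10:22320849-22321148 on the plus strand, the CBX7 promoter at chr22:39152631-39152930 and the HDAC4 promoter at chr2:239401600-239401899, both on the minus strand.
BMI1: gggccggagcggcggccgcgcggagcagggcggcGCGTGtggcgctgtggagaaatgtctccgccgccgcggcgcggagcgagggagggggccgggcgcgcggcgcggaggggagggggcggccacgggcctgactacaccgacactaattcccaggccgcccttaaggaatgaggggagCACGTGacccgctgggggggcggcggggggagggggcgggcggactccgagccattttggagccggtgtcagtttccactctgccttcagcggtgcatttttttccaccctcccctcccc
CBX7: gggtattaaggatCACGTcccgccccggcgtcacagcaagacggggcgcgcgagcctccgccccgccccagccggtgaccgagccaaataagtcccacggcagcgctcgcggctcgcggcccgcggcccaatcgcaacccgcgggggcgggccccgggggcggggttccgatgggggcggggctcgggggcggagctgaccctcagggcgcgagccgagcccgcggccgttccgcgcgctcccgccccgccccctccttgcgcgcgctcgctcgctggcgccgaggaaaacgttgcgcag
HDAC4: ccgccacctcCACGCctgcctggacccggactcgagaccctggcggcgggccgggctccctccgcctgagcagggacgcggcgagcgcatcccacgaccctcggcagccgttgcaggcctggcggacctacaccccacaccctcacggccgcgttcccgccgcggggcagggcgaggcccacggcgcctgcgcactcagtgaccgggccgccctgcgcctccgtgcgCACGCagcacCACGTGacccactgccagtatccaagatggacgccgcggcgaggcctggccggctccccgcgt
The BMI1 promoter held 3 matches, that of CBX7 1 match and that of HDAC4 4 matches. Of the 44 genes that had a promoter in the table, 33 held at least 1 match (75%), beside 48.4% of 27305 promoters of the same length. Those 27305 promoters were not limited to the genes tested here and were not matched for base composition. Whether the 44 hold more matches than like promoters was not tested. The letters CAGGTG, an E-box that the repressor ZEB1 binds, were also looked for on both strands. They occurred in none of these 3 windows, in 6 of the 44 (13.6%) and in 20.6% of all promoters. CAGGTG holds neither ACGTG nor GCGTG, a match is a description of the sequence only, and no match says only that these letters are not in this window.

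Library totals ran from 8609243 reads (Control_3D replicate 4) to 88848786 reads (Ni_3D replicate 2). Levels are given below as CPM (read counts scaled to a common library total) after TMM scaling over the 20 libraries. Keratins KRT8 (186 to 836 CPM) and KRT18 (134 to 388 CPM) were present in every library. The epithelial markers EPCAM (1.58 to 9.59 CPM), CDH1 (0 to 29.1 CPM) and KRT5 (0 to 4.04 CPM) were low or at 0 in most. Their medians over the 20 libraries were 2.35, 0.475 and 0 CPM. The lymphocyte marker CD3E stayed at or below 0.0504 CPM and the endothelial marker PECAM1 at or below 0.0892 CPM. Of the other immune markers, PTPRC stayed at or below 0.307 CPM, whereas CD68 had 22.4 to 81.7 CPM. Of the other endothelial markers, CDH5 stayed at or below 0.230 CPM and VWF had 0.0713 to 3.16 CPM. Several libraries stood apart. Ni_3D replicate 1 and Control_3D replicate 1 held reads of the oestrogen-responsive breast genes ESR1 (10.7 and 3.52 CPM) and TFF1 (33.3 and 20.1 CPM), and ESR1 was at 0 in the other 18. These libraries also held the highest values of CDH1 (29.1 and 11.4 CPM), EPCAM (9.59 and 5.97 CPM) and the keratin KRT19 (38.3 and 13.4 CPM). The 4 Control_3D libraries split in the fibronectin gene FN1, with 3185 and 3114 CPM in replicates 1 and 2 and 161 and 102 CPM in replicates 3 and 4. Among the 47 genes, Control_6W replicate 2 was the highest or lowest of all 20 libraries for 22 genes (46.8%, beside 25.7% of all genes tested), and Ni_6W replicate 1 for 17 (36.2%, beside 35.8% of all genes).

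**Figure D1:**
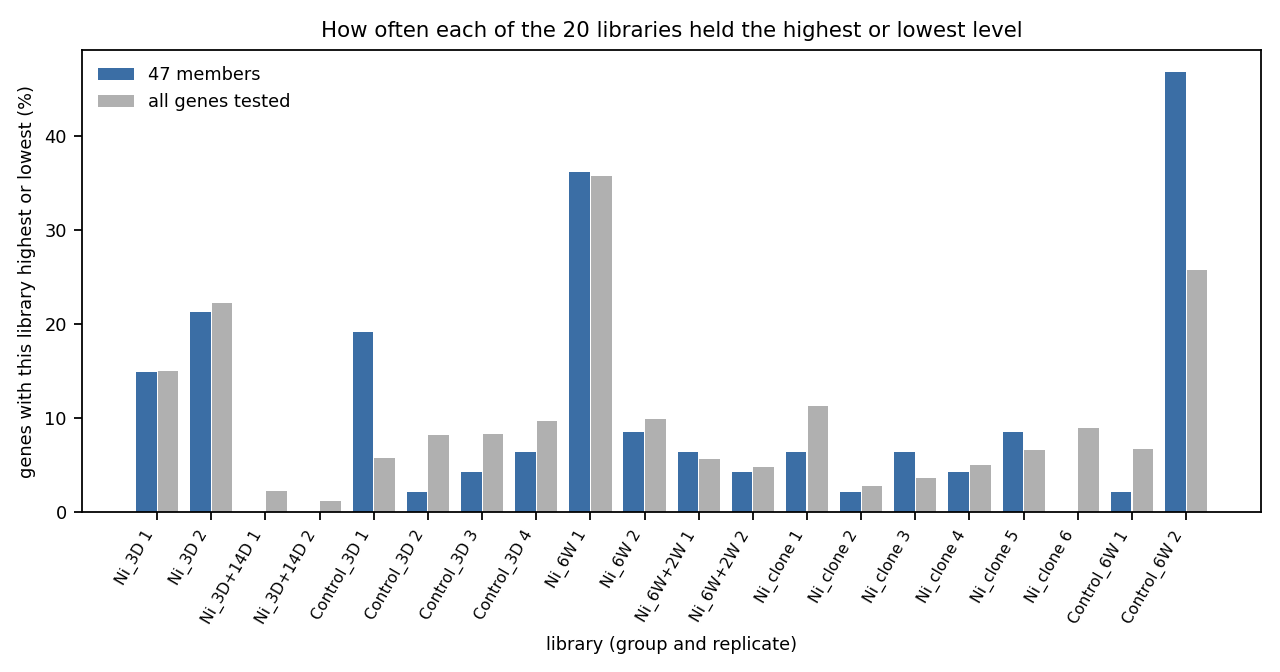
For each library (group and replicate along the horizontal axis), bars give the percentage of genes for which that library held the highest or the lowest CPM of all 20, blue for the 47 repressive chromatin genes and grey for all genes tested. Control_6W replicate 2 reaches 46.8% of the 47 genes against 25.7% of all genes, while Ni_6W replicate 1 lies at 36.2% and 35.8%.

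To compare genes with each other, the authors' RPKM values, which account for gene length, were used. The most abundant of the 47 by the median RPKM over the 20 libraries were RBBP7, a histone chaperone that PRC2 shares with HDAC complexes (128 RPKM), HDAC1 (84.1 RPKM) and the maintenance methyltransferase DNMT1 (82.4 RPKM). The least abundant were the Polyhomeotic gene PHC1 (0.801 RPKM), HDAC9 (0.918 RPKM) and SETDB2 (1.03 RPKM). Within PRC2 the catalytic subunit EZH2 had a median of 26.0 RPKM and its relative EZH1 12.7 RPKM. The core subunits SUZ12 and EED, which the enzyme needs for activity, had 20.6 and 15.2 RPKM. Of the accessory subunits, which steer PRC2 to its sites, PHF19 had 71.5, PHF1 32.0, MTF2 7.51 and JARID2 4.44 RPKM, and the histone chaperone RBBP4 had 12.2 RPKM. Within PRC1 the ligase RING1 had 45.7 RPKM and its partner ligase RNF2 4.44 RPKM. The PCGF subunits, which decide the type of PRC1, were of like size, with medians of 18.1 RPKM for PCGF2, 12.8 for PCGF1, 12.0 for PCGF5, 11.0 for PCGF3, 9.86 for BMI1 and 5.82 for PCGF6. Of the CBX readers CBX6 had 28.6 RPKM, CBX7 8.98, CBX8 8.23 and CBX2 7.19, and of the Polyhomeotic genes PHC2 had 38.2 and PHC3 5.77 RPKM.

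The partners of the G9a/GLP dimer, EHMT2 and EHMT1, had medians of 29.6 and 27.2 RPKM, SUV39H1 had 21.1, SETDB1 9.36 and SUV39H2 5.98 RPKM. The HP1 genes stood at 78.4 RPKM for CBX1, 40.7 for CBX3 and 14.0 for CBX5. UHRF1, which brings DNMT1 to newly copied DNA, had 35.2 RPKM, and the de novo methyltransferases DNMT3A and DNMT3B had 6.18 and 5.32 RPKM. Of the remaining deacetylases, HDAC3 had 64.7 RPKM, HDAC7 35.4, the cytoplasmic tubulin deacetylase HDAC6 24.7, HDAC5 16.9, HDAC2 15.4, the sirtuin SIRT1 9.70 and HDAC4 2.64 RPKM. The steadiest genes over the 20 libraries were RBBP7, HDAC3 and PCGF3, whose highest CPM was 1.40, 1.43 and 1.46 times the lowest. The widest ranges were those of EZH1 (7.52 times), HDAC5 (5.01 times), BMI1 (4.99 times), HDAC9 (4.51 times) and PHF1 (4.04 times). SUZ12, CBX3, RBBP4, HDAC1 and BMI1 have pseudogene copies, and how reads shared with a copy were counted is not given in the sources used here.

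**Figure D2:**
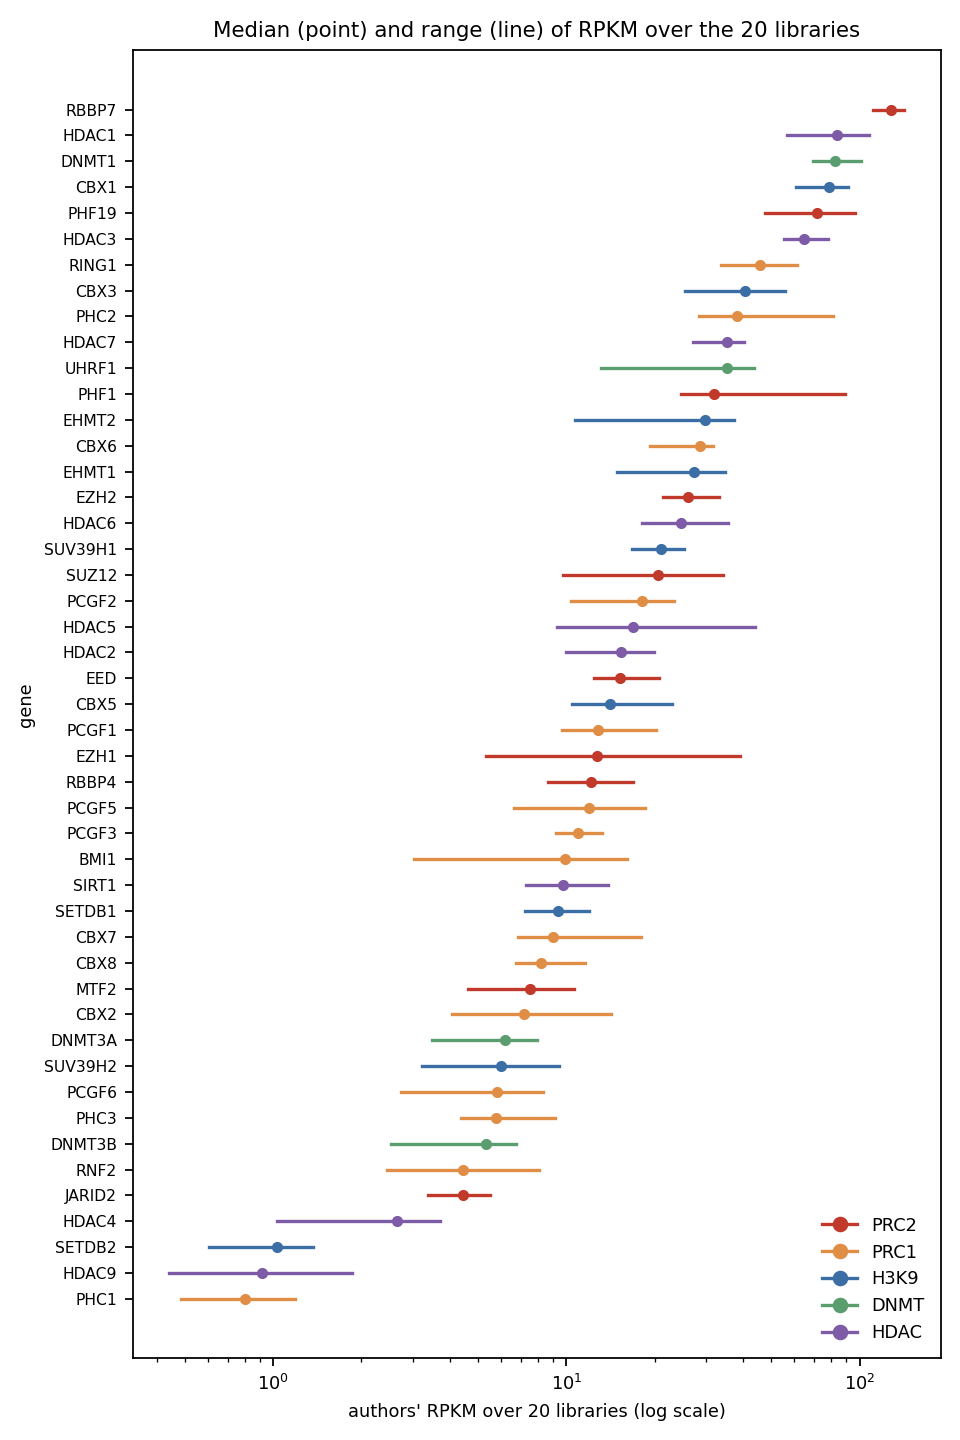
The authors' RPKM (horizontal axis, log scale) of each of the 47 genes, sorted by median, with the point at the median and the line from the lowest to the highest of 20 libraries, coloured by group of genes. Medians run from 128 RPKM (RBBP7) to 0.801 RPKM (PHC1), and the line of EZH1 is among the longest.

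After 3 days of nickel 1 of the 47 genes changed: BMI1, the PCGF subunit of canonical PRC1 known for repressing the INK4A locus, fell. BMI1 (hg19 chr10:22610139-22620414, plus strand) had 20.7 and 23.2 CPM in the Ni_3D libraries, against 39.1, 52.6, 63.9 and 48.1 CPM in the Control_3D libraries. Both Ni_3D libraries lay below all 4 controls. The log2 fold change was -1.20 (SE 0.25), a level 0.434 times that of Control_3D, with an adjusted p of 0.0246. Here and below an edgeR adjusted p is that of the quasi-likelihood F test of edgeR, adjusted over all genes tested after Benjamini and Hochberg, and a gene passed where it was under 0.05. These are bulk libraries, so fewer cells carrying a transcript and less of it per cell cannot be told apart. BMI1 was the 1 gene of the 47 that passed in either direction, beside 4.33% of 14927 genes tested, of which 2.83% rose and 1.51% fell. At an unadjusted p under 0.05 there were 10 of the 47 (21.3%), beside 24.3% of all genes. The Ni_3D and Control_3D libraries did not overlap for 18 of the 47 (38.3%), beside 38.5% of all genes. Ni_3D lay above for 6 (20% of all genes) and below for 12 (18.5%). The median log2 fold change of the 47 was 0.00, and 0.03 over all genes.

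A row named COMMD3-BMI1, a readthrough transcript that runs through the neighbour COMMD3 into BMI1, shares exons with BMI1 and makes its level uncertain. The row held 230 reads in Ni_3D replicate 1, beside 1042 reads of BMI1, and 0 reads in Ni_3D replicate 2 and in all Control_3D libraries. Over the 20 libraries it held 0 reads in 8 and at most 245. With both rows added, the level was 25.3 and 23.2 CPM in Ni_3D, still below the 39.1 to 63.9 CPM of Control_3D. The log2 fold change was then -1.08 and did not pass, with an edgeR adjusted p of 0.0724. The call was also lost without either Ni_3D replicate, without Control_3D replicate 2 or 3, without Control_3D replicates 3 and 4 together, and without the replicates 1 of Ni_3D and Control_3D that held ESR1 reads (edgeR adjusted p from 0.0607 to 0.137, log2 fold change from -1.30 to -1.07). The summed level of 21 proliferation genes was 5771 to 5872 CPM in Ni_3D and 6079 to 6347 CPM in Control_3D. Members went both ways: 9 lay below all 4 controls and 2, MKI67 and E2F1, above, beside 18.5% and 20% of all genes. The summed level of 7 epithelial markers was 986 to 1086 CPM in Ni_3D and 1280 to 1885 CPM in Control_3D. The part of both lists in the BMI1 result was not tested.

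Of the other PRC1 genes in Ni_3D, CBX2, a reader of H3K27 methylation, had 61.6 and 44.7 CPM, against 41.7, 31.4, 22.2 and 27.7 CPM in Control_3D. Both nickel libraries lay above all controls, but the difference did not pass (log2 fold change 0.80, SE 0.26, edgeR adjusted p = 0.0905). CBX7, another CBX reader, had 63.0 and 51.4 CPM in Ni_3D, against 40.5, 32.4, 38.2 and 45.3 CPM in Control_3D, also apart without passing (0.56, SE 0.20, edgeR adjusted p = 0.116). In the H3K9 group the HP1 gene CBX5 stood at 294 and 213 CPM in Ni_3D and at 141, 184, 147 and 166 CPM in Control_3D. Again the groups did not overlap and the test was not passed (0.68, SE 0.22, edgeR adjusted p = 0.0893). HDAC2, a catalytic subunit of the NuRD and SIN3 complexes, had 81.2 and 97.0 CPM in Ni_3D, against 112, 130.3, 150.0 and 132 CPM in Control_3D. Its difference of -0.55 (SE 0.18) missed in edgeR (adjusted p = 0.0925) and passed in DESeq2's Wald test with the same adjustment (adjusted p = 0.0336). DESeq2 called 2 of the 47 in Ni_3D (4.26%), BMI1 and HDAC2, beside 12.7% of the genes to which it gave an adjusted p. Among the 10 PRC2 genes, 9 lay within a log2 fold change of 0.5 of the control and SUZ12 had -0.72 (SE 0.31). EZH2 had 83.8 and 106 CPM in Ni_3D, against 82.3, 82.6, 74.5 and 72.8 CPM in Control_3D (0.29, SE 0.16). All 4 DNMT genes lay within 0.5, with DNMT1 at 0.04 and DNMT3A at 0.16.

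**Figure D3:**
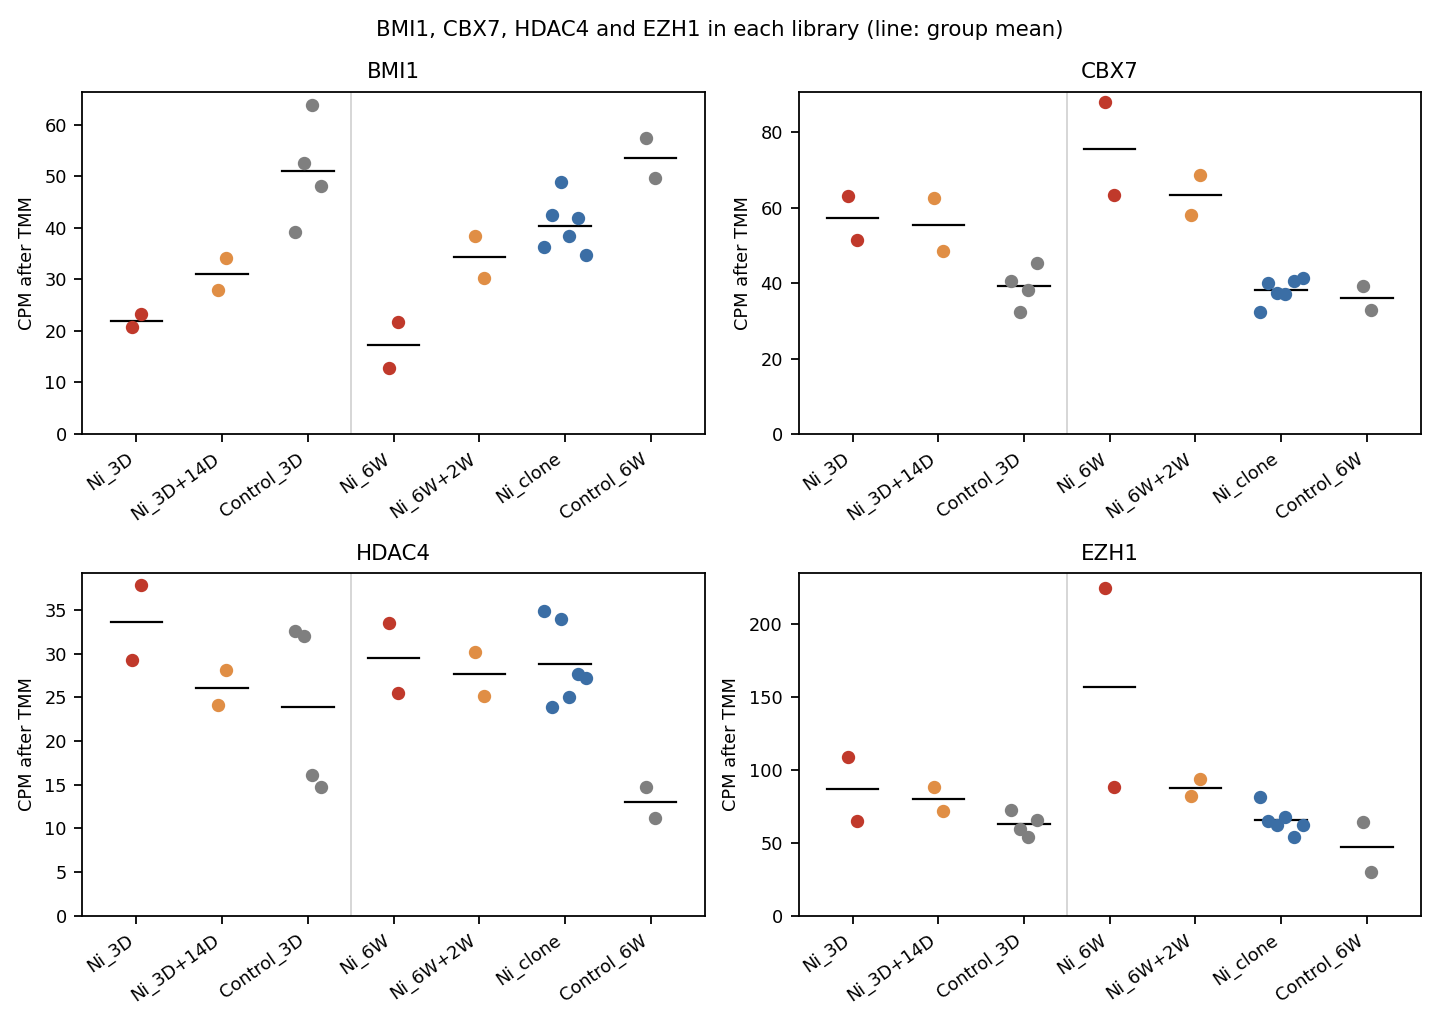
CPM of BMI1, CBX7, HDAC4 and EZH1 in each library (points) and the mean of each group (line), with the 3-day groups left and the 6-week groups right of the grey line. BMI1 lies lowest in Ni_3D (20.7 and 23.2 CPM) and Ni_6W (12.8 and 21.7 CPM), CBX7 lies highest in Ni_6W (88.0 and 63.4 CPM), and HDAC4 is low in 4 of the 6 control libraries.

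At 14 days after the short exposure none of the 47 genes passed, as was so for all 14927 genes tested (0%). By edgeR 2 of the 47 had an unadjusted p under 0.05 (4.26%), beside 4.11% of all genes, and DESeq2 called 0 of the 47, beside 0.0993% of genes. The libraries did not overlap for 11 of the 47 (23.4%), beside 21.9% of all genes, with Ni_3D+14D above for 5 (11.6% of all genes) and below for 6 (10.3%). BMI1 had 27.9 and 34.2 CPM in Ni_3D+14D, against 39.1, 52.6, 63.9 and 48.1 CPM in Control_3D. The later libraries still lay below every control (log2 fold change -0.72, SE 0.24, edgeR adjusted p = 0.979). CBX7, a CBX reader of canonical PRC1 known to bind H3K27 methylation, had 62.4 and 48.5 CPM in Ni_3D+14D, against 40.5, 32.4, 38.2 and 45.3 CPM in Control_3D (0.50, SE 0.20). SIRT1, a NAD-dependent deacetylase, had 37.0 and 41.4 CPM in Ni_3D+14D and 44.7, 52.7, 52.6 and 49.4 CPM in Control_3D (-0.35, SE 0.17). Both pairs of groups were apart without passing the test (edgeR adjusted p = 0.979 for each). This comparison and the one at 3 days share their controls.

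Set directly against Ni_3D, the Ni_3D+14D libraries showed no change of the 47 genes that passed, beside 0.255% of all genes (0.121% higher and 0.134% lower). Of the 47, 2 had an unadjusted p under 0.05 (4.26%), beside 12.6% of all genes. The libraries did not overlap for 19 (40.4%), beside 54.1% of all genes, 11 above (27.4%) and 8 below (26.8%). HDAC1, the partner deacetylase of HDAC2, had 241 and 241 CPM in Ni_3D+14D, against 146 and 152 CPM in Ni_3D. The 2 later libraries were nearly equal and well above the earlier ones (log2 fold change 0.68, SE 0.20). That difference did not pass in edgeR (adjusted p = 0.178) and was the 1 gene of the 47 (2.13%) that passed in DESeq2's Wald test (adjusted p = 0.0297), beside 3.02% of genes. CBX5 had 183 and 149 CPM in Ni_3D+14D, against 294 and 213 CPM in Ni_3D (-0.62, SE 0.26, edgeR adjusted p = 0.356). CBX1, a second HP1 gene, had 222 and 229.8 CPM against 152 and 198 CPM in Ni_3D (0.36, SE 0.18). BMI1 did not overlap between the 2 groups either and differed by 0.48 (SE 0.27).

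After 6 weeks of nickel 2 of the 47 genes changed, both subunits of PRC1: BMI1 fell and CBX7 rose. BMI1 had 12.8 and 21.7 CPM in Ni_6W, against 57.4 and 49.6 CPM in Control_6W. The 2 nickel libraries were the lowest for BMI1 among the libraries of the 6-week groups (log2 fold change -1.64, SE 0.28, edgeR adjusted p = 0.0497). CBX7 (hg19 chr22:39526779-39548538, minus strand) had 88.0 and 63.4 CPM in Ni_6W, against 39.2 and 32.8 CPM in Control_6W. The groups did not overlap (1.08, SE 0.24, edgeR adjusted p = 0.0497). Of 14927 genes tested 2.47% passed, 1.25% higher and 1.21% lower. Unadjusted, 16 of the 47 had a p under 0.05 (34.0%), beside 26.6% of all genes. The libraries did not overlap for 28 (59.6%), beside 47.1% of all genes, 16 above (24.4%) and 12 below (22.7%). The median log2 fold change of the 47 was 0.09, and 0.03 over all genes.

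Leaving out 1 of the 2 libraries of a group leaves a lone library, which is then assumed to vary like the other groups. Without Ni_6W replicate 1 none of the 47 and no gene at all (0%) passed (BMI1 -1.31 and CBX7 0.81, edgeR adjusted p = 0.255 for each), and without Control_6W replicate 2 the counts were likewise 0 (-1.75 and 0.94, edgeR adjusted p = 0.212 and 0.217). Without Ni_6W replicate 2 the count was 12 of the 47 (25.5%), beside 18.5% of all genes. CBX7 also missed without Control_6W replicate 1 (edgeR adjusted p = 0.0581). The readthrough row held 0 and 149 reads in Ni_6W replicates 1 and 2, beside 294 and 247 reads of BMI1, and 88 and 42 reads in Control_6W. Added to BMI1, it gave 12.8 and 34.9 CPM in Ni_6W, against 62.3 and 52.2 CPM in Control_6W, and the call was lost (-1.27, edgeR adjusted p = 0.0703). The summed level of 7 epithelial markers was 376 to 830 CPM in Ni_6W and 1327 to 1394 CPM in Control_6W, with KRT7 at 51.0 and 199 CPM in Ni_6W and 505 and 437 CPM in Control_6W. None of the 7 passed, and 4 lay below and 1 above in both nickel libraries. Of the 4, KRT5 was near 0 in both groups (0 CPM in Ni_6W, 0.0548 and 0.182 CPM in Control_6W). The 1 above, KRT19, was also low, with 1.48 and 2.11 CPM in Ni_6W and 0 CPM in Control_6W. The part of the 7 in the results for BMI1 and CBX7 was not tested.

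EZH1, the PRC2 enzyme of slowly dividing cells, had the largest difference of the 47 genes in Ni_6W. It stood at 225 and 88.5 CPM in Ni_6W, against 64.4 and 29.9 CPM in Control_6W. The libraries of each group differed by more than 2-fold, and the difference missed the threshold (log2 fold change 1.75, SE 0.43, edgeR adjusted p = 0.0504). Without Ni_6W replicate 1 and Control_6W replicate 2 together it was 0.45. PHF1, a PRC2 subunit that binds methylated H3K36, had 252 and 90.6 CPM in Ni_6W, against 83.0 and 79.2 CPM in Control_6W. HDAC5, a class IIa deacetylase, was likewise high in Ni_6W replicate 1, with 291 and 123 CPM in Ni_6W and 87.6 and 121 CPM in Control_6W. Neither passed (1.09 and 0.997, edgeR adjusted p = 0.0805 and 0.127). EZH2, the other PRC2 enzyme, had 97.3 and 82.7 CPM in Ni_6W, against 74.5 and 70.0 CPM in Control_6W, a smaller difference without overlap (0.32, SE 0.18). HDAC4, of the same class as HDAC5, had 33.5 and 25.5 CPM in Ni_6W, against 14.7 and 11.2 CPM in Control_6W, apart but not passing (1.20, SE 0.38, edgeR adjusted p = 0.0834). SUZ12 had 54.0 and 111 CPM in Ni_6W, against 116 and 186 CPM in Control_6W (-0.88, SE 0.35).

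Of the DNA methylation genes, UHRF1 had 64.1 and 107 CPM in Ni_6W, against 169.9 and 159 CPM in Control_6W. Both nickel libraries lay below both controls, and the difference was just outside the threshold (log2 fold change -0.94, SE 0.24, edgeR adjusted p = 0.0571). The summed level of 21 proliferation genes, to which UHRF1 does not belong, was 5375 to 5700 CPM in Ni_6W and 6460 to 6684 CPM in Control_6W. Of the 21, 8 lay below both controls in both libraries and 1 above, beside 22.7% and 24.4% of all genes. The part of these genes in the UHRF1 difference was not tested. DNMT1 had 501 and 431 CPM in Ni_6W and 520.3 and 451 CPM in Control_6W (-0.05). DNMT3A and DNMT3B had 0.55 and 0.60 without passing. In the H3K9 group no member passed, and the log2 fold changes ran from -0.81 (SUV39H2) to 0.43 (EHMT2). DESeq2's Wald test called 8 of the 47 in Ni_6W: BMI1, UHRF1 and HDAC2 lower, and CBX7, EZH1, PHF1, HDAC4 and PCGF2 higher. The share of the 47 was 17.0%, beside 14.5% of the genes to which DESeq2 gave an adjusted p.

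**Figure D4:**
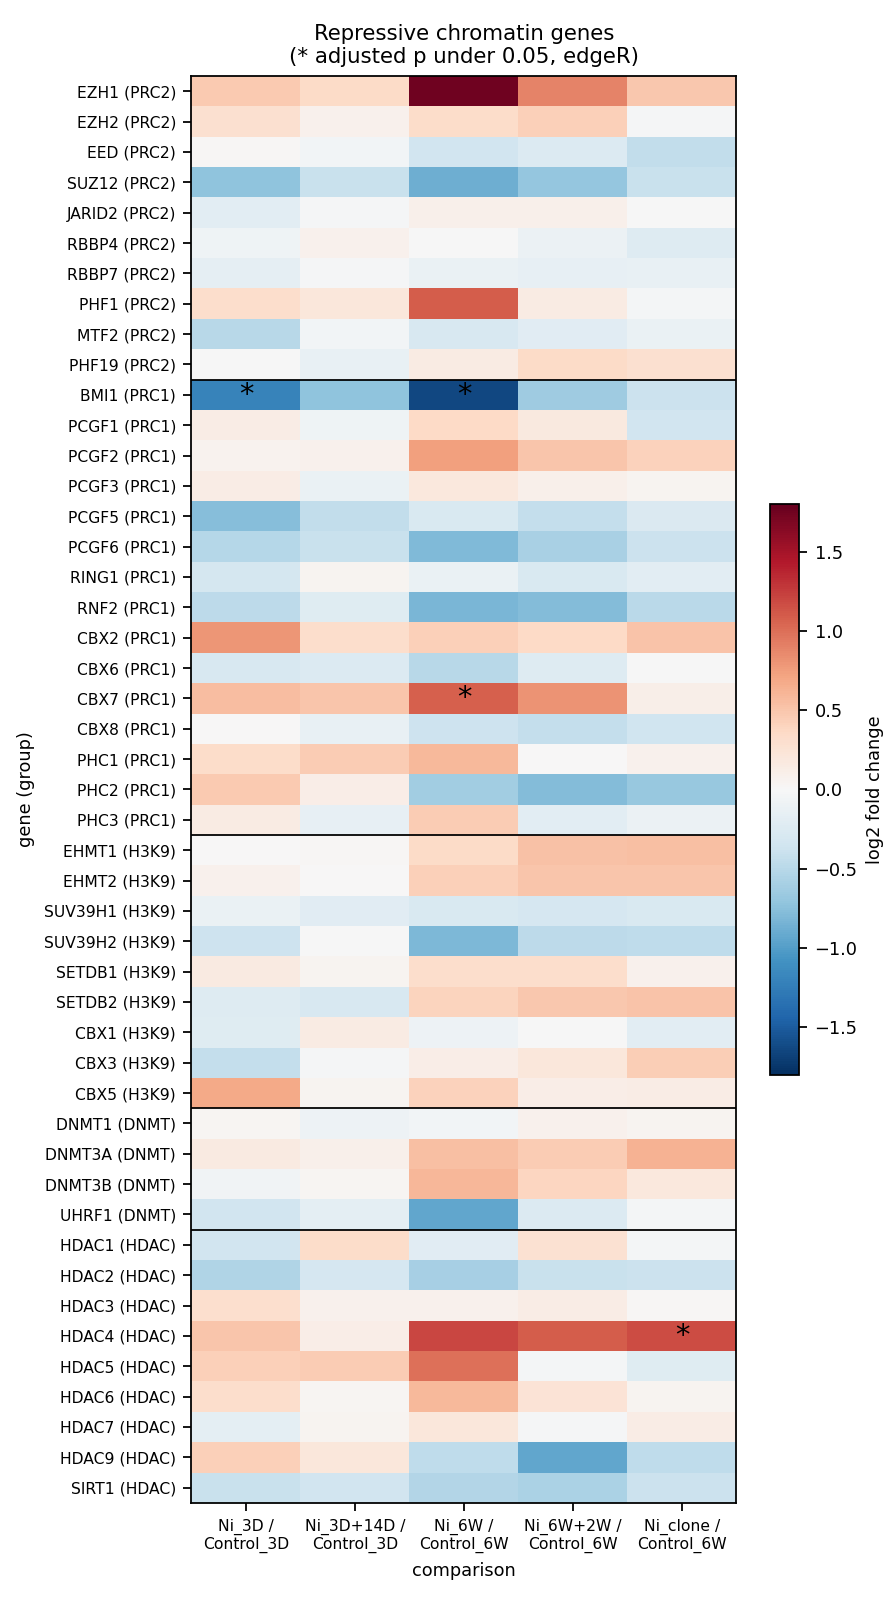
Log2 fold change (colour, red higher and blue lower in the nickel group) of the 47 genes in each nickel group over its control, with genes in rows by group and a star where the edgeR adjusted p was under 0.05. The 4 stars are BMI1 in Ni_3D and Ni_6W, CBX7 in Ni_6W and HDAC4 in the clones. The first 2 columns share Control_3D and the other 3 share Control_6W.

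After 2 weeks without nickel none of the 47 genes passed against Control_6W, as was so for all genes (0%). By edgeR 8 of the 47 (17.0%) had an unadjusted p under 0.05, beside 13.1% of all genes, and DESeq2 called 0 of the 47, beside 2.24% of genes. The libraries did not overlap for 25 (53.2%), beside 44.2% of all genes, 14 above (23.8%) and 11 below (20.4%). CBX7 had 58.0 and 68.7 CPM in Ni_6W+2W, against 39.2 and 32.8 CPM in Control_6W (log2 fold change 0.81, SE 0.24, edgeR adjusted p = 0.259). HDAC4 had 30.1 and 25.2 CPM in Ni_6W+2W, against 14.7 and 11.2 CPM in Control_6W (1.09, SE 0.38). SIRT1 had 39.8 and 42.5 CPM in Ni_6W+2W and 53.2 and 68.5 CPM in Control_6W (-0.57, SE 0.19). Each of these 3 genes was fully apart between the groups. BMI1 had 38.5 and 30.3 CPM in Ni_6W+2W, nearer to its controls than Ni_6W was (-0.64, SE 0.28, edgeR adjusted p = 0.354). EZH1 had 81.7 and 93.8 CPM, against 64.4 and 29.9 CPM in Control_6W (0.89, SE 0.42).

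Set directly against Ni_6W, no gene passed in Ni_6W+2W, neither of the 47 nor of all genes (0%), and DESeq2 called 0 of the 47, beside 0.0325% of genes. An unadjusted p under 0.05 was held by 6 of the 47 (12.8%), beside 6.59% of all genes. No overlap was seen for 12 (25.5%), beside 26.1% of all genes, 6 above (13.6%) and 6 below (12.5%). BMI1 had 38.5 and 30.3 CPM in Ni_6W+2W, against 12.8 and 21.7 CPM in Ni_6W (log2 fold change 1.001, SE 0.28, edgeR adjusted p = 0.733). UHRF1 had 161 and 117 CPM in Ni_6W+2W, against 64.1 and 107 CPM in Ni_6W (0.70, SE 0.24). PHF1 had 95.0 and 84.7 CPM in Ni_6W+2W, against 252 and 90.6 CPM in Ni_6W (-0.94, SE 0.34). By their own rows BMI1 and UHRF1 were higher in both washed-out libraries, and PHF1 overlapped, as Ni_6W replicate 2 lay within the range of Ni_6W+2W. With the readthrough row added, BMI1 had 42.29 and 34.82 CPM in Ni_6W+2W, against 12.80 and 34.86 CPM in Ni_6W. The groups then overlapped for BMI1. Without Ni_6W replicate 2 the count was 4 of the 47: BMI1 and UHRF1 higher, PHF1 and HDAC5 lower. That share of 8.51% stood beside 7.4% of all genes.

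In the clones 1 of the 47 genes changed: HDAC4, which represses MEF2 target genes, rose. HDAC4 (hg19 chr2:239969864-240322643, minus strand) had a lowest value of 23.9, a median of 27.4 and a highest of 34.8 CPM over the 6 clones, against 14.7 and 11.2 CPM in Control_6W. Every clone lay above both controls (log2 fold change 1.17, SE 0.21, 2.25-fold, edgeR adjusted p = 0.0199). No gene of the 47 fell. Of 14172 genes tested 5.26% passed, 2.89% higher and 2.38% lower. Unadjusted, 13 of the 47 had a p under 0.05 (27.7%), beside 25.2% of all genes. Clones and controls did not overlap for 14 (29.8%), beside 24.2% of all genes, 5 above (11.6%) and 9 below (12.5%). Without Control_6W replicate 2 HDAC4 missed (0.98, edgeR adjusted p = 0.189) and none of the 47 was called, beside 0.0411% of all genes. Without Control_6W replicate 1 the count was 11 (23.4%), beside 10.3% of all genes.

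HDAC4 also split the 3-day controls into pairs. It had 32.6 and 32.0 CPM in Control_3D replicates 1 and 2, and 16.1 and 14.7 CPM in replicates 3 and 4. The low pair stood near Control_6W, and the high pair stood among the nickel libraries, which ran from 23.9 to 37.9 CPM. ZEB1, a driver of epithelial-mesenchymal transition, split the same way: the 4 control libraries of low HDAC4 had 0.608 to 1.76 CPM of ZEB1, and Control_3D replicates 1 and 2 had 11.9 and 12.4 CPM. The summed level of 4 mesenchymal markers was 2041 to 4433 CPM in the clones and 1984 to 2642 CPM in Control_6W. Of the 4, ZEB1 had 7.75 to 14.6 CPM in the clones, against 0.986 and 0.608 CPM in Control_6W. FN1 had 212 to 2076 CPM, against 118 and 173 CPM, and VIM and CDH2 overlapped. The sum of the 21 proliferation genes was 5582 to 5998 CPM in the clones and 6460 to 6684 CPM in Control_6W. Of the 21, 6 lay below both controls in all clones and 0 above, beside 12.5% and 11.6% of all genes. The part of these differences in the HDAC4 result was not tested. In Ni_3D, HDAC4 had 29.3 and 37.9 CPM and a log2 fold change of 0.49 (SE 0.31) over all 4 controls. Without Control_3D replicates 1 and 2 that became 1.11, with an edgeR adjusted p of 0.0260, and 3 of the 47 passed (6.38%), beside 7.95% of all genes. Those replicates are the controls of high HDAC4, so leaving them out raises its difference by construction. That p-value therefore cannot decide whether HDAC4 rose in Ni_3D.

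Other members differed less in the clones. DNMT3A had 26.5, 30.2 and 33.3 CPM as lowest, median and highest clone, against 23.0 and 16.5 CPM in Control_6W (log2 fold change 0.63, SE 0.17, edgeR adjusted p = 0.0580). EHMT1 had 133, 161 and 176 CPM in the clones, against 128 and 91.7 CPM in Control_6W (0.54, SE 0.16, edgeR adjusted p = 0.0727). All clones lay above both controls for both genes. DESeq2's Wald test called HDAC4, DNMT3A, EHMT1 and CBX3, all higher, which is 8.51% of the 47 beside 13.4% of genes. As with HDAC4, Control_3D replicates 1 and 2 lay above replicates 3 and 4 for DNMT3A, EHMT1 and CBX3. DNMT3A had 31.0 and 26.6 CPM against 21.8 and 23.6 CPM, and EHMT1 205 and 189 CPM against 133 and 131 CPM. CBX3 had 103 and 133 CPM against 82.9 and 73.0 CPM. The part of this split in the clone differences was not tested. BMI1 had 34.7, 40.2 and 48.8 CPM in the clones, against 57.4 and 49.6 CPM in Control_6W (-0.39, SE 0.15, edgeR adjusted p = 0.144). CBX7 had 32.3, 38.8 and 41.3 CPM, a range that took in both controls (0.10, SE 0.14). Of the PRC2 enzymes, EZH2 had 62.6, 67.6 and 83.4 CPM in the clones, against 74.5 and 70.0 CPM in Control_6W (-0.01, SE 0.13).

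Against Ni_6W+2W, the washed-out population, none of the 47 genes passed in the clones by edgeR, beside 0.028% of 14273 genes (0.014% in each direction). Unadjusted, 5 of the 47 had a p under 0.05 (10.6%), beside 6.61% of all genes. Both groups were fully apart for 6 (12.8%), beside 8.64% of all genes, 1 above (4%) and 5 below (4.64%). The 6 clones had for CBX7 32.3, 38.8 and 41.3 CPM as lowest, median and highest, against 58.0 and 68.7 CPM in Ni_6W+2W. Every clone lay below both washed-out libraries (log2 fold change -0.74, SE 0.13). The difference missed in edgeR (adjusted p = 0.271) and passed in DESeq2's Wald test (adjusted p = 0.00068), the 1 of the 47 that did (2.13%), beside 0.424% of genes. EZH2 had 62.6, 67.6 and 83.4 CPM in the clones, against 99.3 and 95.0 CPM in Ni_6W+2W (-0.46, SE 0.12). The clones were also below both libraries for EZH2, without passing (edgeR adjusted p = 0.687). PCGF1, the subunit of the BCOR-containing PRC1, had 9.74, 10.6 and 13.8 CPM in the clones and 19.1 and 13.4 CPM in Ni_6W+2W (-0.54, SE 0.19).

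The clones were alike in most of the 47 genes. The median SD of log2 (CPM + 1) over the 6 clones was 0.161 for the 47, beside 0.212 for all genes tested. In 38 of the 47 the highest clone was less than 1.5 times the lowest, a share not taken for all genes. The genes were not matched for level, so whether the 47 vary less than genes of like level was not tested. The most variable were HDAC9 (3.55 to 9.09 CPM), HDAC5 (58.0 to 124 CPM), PHF19 (129 to 252 CPM), CBX2 (25.9 to 52.2 CPM) and RING1 (64.9 to 111 CPM). Clone 5 was highest for HDAC9 and PHF19 and lowest for HDAC5, and clone 1 was highest for HDAC5, CBX2 and RING1 and lowest for PHF19. Each clone is 1 library, so variation between clones and between libraries of a clone cannot be told apart.

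**Figure D5:**
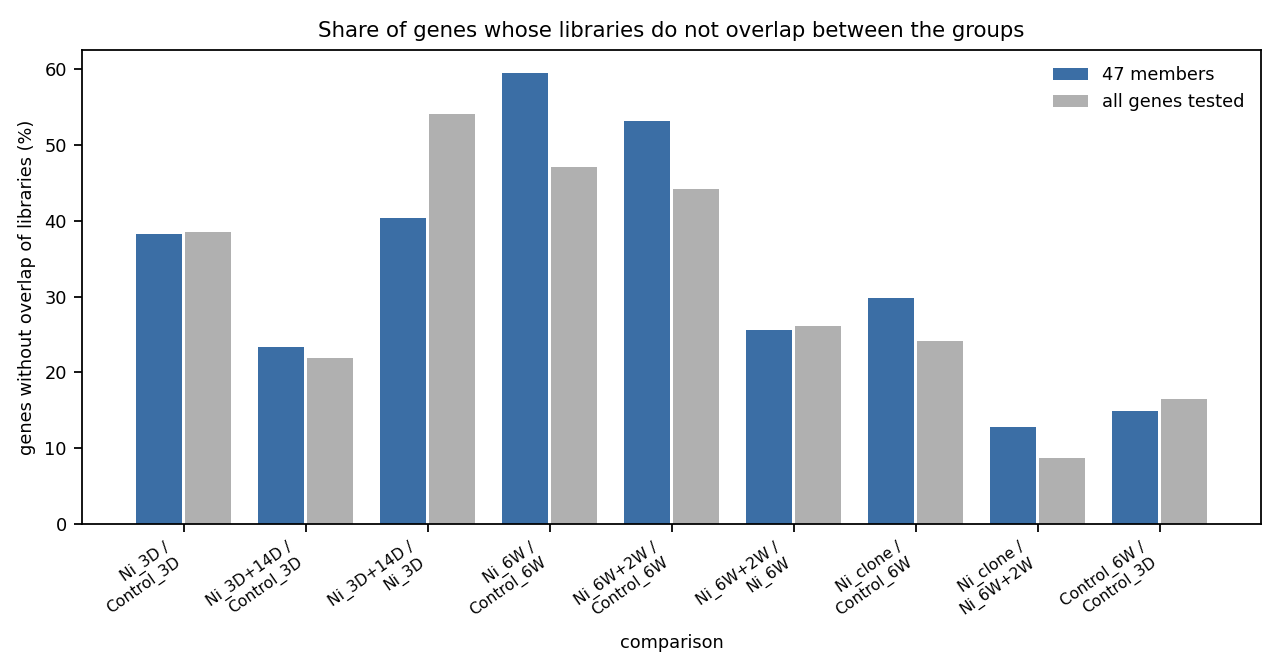
Percentage of genes whose libraries do not overlap between the 2 groups of each comparison, blue for the 47 repressive chromatin genes and grey for all genes tested, the first-named group being the one set over the second. The blue bars lie at 38.3% in Ni_3D and 59.6% in Ni_6W against their controls, beside 38.5% and 47.1% of all genes.

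Across the design the balance of the PCGF subunits of canonical PRC1 can be read from RPKM ratios, given as a description. BMI1 over its relative PCGF2 was 0.305 ± 0.061 in Ni_3D and 0.423 ± 0.105 in Ni_3D+14D (SD, n = 2 each), against 0.759 ± 0.286 in Control_3D (SD, n = 4). It was 0.210 ± 0.114 in Ni_6W, 0.468 ± 0.103 in Ni_6W+2W (SD, n = 2 each) and 0.594 ± 0.095 in the clones (SD, n = 6), against 1.04 ± 0.153 in Control_6W (SD, n = 2). By the BMI1 row alone the ratio was lowest during exposure in both series. The readthrough row held 37.6% of the combined reads in Ni_6W replicate 2 and 18.1% in Ni_3D replicate 1. It held 0% in the other replicate of each group, and the ratio with it added was not tested. CBX7 over CBX2 was 2.35 ± 0.83 in Ni_6W, 2.14 ± 0.38 in Ni_6W+2W and 1.20 ± 0.34 in the clones, against 1.5 ± 0.25 in Control_6W (SD, n = 2, 2, 6 and 2). EZH1 over EZH2 was 0.972 ± 0.498 in Ni_6W, 0.523 ± 0.069 in Ni_6W+2W and 0.543 ± 0.126 in the clones, against 0.373 ± 0.177 in Control_6W (SD, n = 2, 2, 6 and 2). SIRT1 ran from 35.5 to 51.1 CPM over the 14 nickel libraries and from 44.7 to 68.5 CPM over the 6 controls, and passed in none of the 5 comparisons with a control.

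Whether the long and short responses differed was tested as the Ni_6W difference minus the Ni_3D difference, each against its control. No gene of the 47 passed, and none of 14927 genes did, in edgeR. At an unadjusted p under 0.05 there were 2 of the 47 and 1630 genes in all. For BMI1 the difference of the responses was -0.44 (SE 0.36), for CBX7 0.52 (SE 0.32) and for EZH1 1.27 (SE 0.56, edgeR adjusted p = 0.436). PHC2, a Polyhomeotic subunit of PRC1, had -1.11 (SE 0.45, edgeR adjusted p = 0.393).

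Between the control groups none of the 47 passed in edgeR, as was so for all genes (0%), and DESeq2 called 0 of the 47, beside 0.35% of genes. At an unadjusted p under 0.05 there were 4 of the 47 (8.51%), beside 8.31% of all genes, and the libraries did not overlap for 7 (14.9%), beside 16.5% of all genes, 2 above (8.88%) and 5 below (7.6%). PHC2 had 105 and 255 CPM in Control_6W, against 89.4, 83.7, 120.4 and 119.6 CPM in Control_3D (log2 fold change 0.79, SE 0.29). The high value was that of Control_6W replicate 2 alone. EHMT1 had 128 and 91.7 CPM in Control_6W, against 205, 189, 133 and 131 CPM in Control_3D (-0.60, SE 0.22). HDAC4 had 14.7 and 11.2 CPM in Control_6W, against the 4 Control_3D values given above (-0.90, SE 0.34). EHMT2 had 139 and 52.0 CPM in Control_6W, against 171, 141, 133 and 117 CPM in Control_3D, with replicate 2 again the outlying library.

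Genes that work with or against these complexes were counted in the same way. Of 51 partner genes 1 rose and 1 fell in Ni_3D, beside 2.83% of all genes that rose and 1.51% that fell. EPOP, a PRC2-binding protein listed as C17orf96, had 41.0 and 56.8 CPM in Ni_3D, against 22.9, 20.9, 28.4 and 26.5 CPM in Control_3D (log2 fold change 0.999, SE 0.23, edgeR adjusted p = 0.0356). ATF7IP, which stabilises SETDB1, had 43.5 and 47.2 CPM in Ni_3D, against 74.2, 86.6, 82.8 and 71.0 CPM in Control_3D (-0.78, SE 0.17, edgeR adjusted p = 0.0272). SETDB1 itself had a log2 fold change of 0.16 there. Of 13 genes that erase these marks 1 rose in Ni_3D, the H3K9 demethylase and hypoxia-inducible gene KDM3A. KDM3A had 150.2 and 137 CPM in Ni_3D, against 49.0, 50.7, 36.2 and 43.9 CPM in Control_3D (1.69, SE 0.23, edgeR adjusted p = 0.00292). For each of these 3 genes the Ni_3D libraries lay wholly apart from the controls.

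In Ni_6W none of the partner or eraser genes passed, and the medians of their log2 fold changes were -0.21 and -0.08, beside 0.03 over all genes. In the clones 1 of 51 partner genes rose and 1 fell, beside 2.89% and 2.38% of all genes, and no eraser passed. The corepressor scaffold SIN3A, to which HDAC1 and HDAC2 bind, had 115, 121 and 144 CPM as lowest, median and highest clone, against 91.1 and 69.6 CPM in Control_6W (0.66, SE 0.15, edgeR adjusted p = 0.0343). RCOR1, the scaffold of the CoREST complex, had 57.2, 63.4 and 64.5 CPM in the clones, against 79.8 and 112 CPM in Control_6W (-0.62, SE 0.13, edgeR adjusted p = 0.0319). Of 21 proliferation genes 2 fell in Ni_3D (MCM5 and CCNA2), beside 1.51% of all genes, and 1 in the clones (TYMS), beside 2.38%. No partner or eraser passed in the comparisons of Ni_3D+14D, of Ni_6W+2W, of the clones with Ni_6W+2W, or between the controls.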

How the data were processed

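The authors deposited for each of the 20 libraries raw read counts per RefSeq gene, without normalisation, and beside each count an RPKM value. Per the submitters' processing notes STAR 2.4, DESeq and DESeq2 were used with the builds GRCh37 and hg19; no source used here gives the counting tool or the strand. Libraries were joined by RefSeq identifier. All 14 population libraries entered 1 fit with a mean per group, and the clones entered fits with Control_6W or Ni_6W+2W only, in edgeR 4.0.16 under R 4.3.3 (TMM scaling; filterByExpr, minimum count 10, minimum total 15; quasi-likelihood F test with robust dispersion; Benjamini-Hochberg adjustment over all genes; called under 0.05). The biological coefficient of variation was 29.7% and 24.7% to 24.8%. Depth limits low genes most, and replicates of 2 limit every comparison. All 47 genes passed the filter in each fit. Alternatives were a replicate block, DESeq2 1.42.0, size factors by RLE, skipping the filter, leaving out libraries, and adding the readthrough row to BMI1. Every member is named; per-library values are given for called members, the 3 of smallest p in each comparison, and catalytic members that a result turns on. SUZ12, and UHRF1, PHF1 and HDAC5 in Ni_6W, were named after their values were seen. Members and lists were chosen with earlier results of these data known.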

Additional observations from a re-analysis of the deposited data

Results flagged for a closer look

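Single libraries stood apart from their group for 5 gene and group pairs among 94 tested in groups of 4 or 6 libraries (5.32%), where chance flags about 1 in 20. JARID2 was highest in Control_3D replicate 1 at 34.6 CPM, with the next control at 29.3 CPM. HDAC6 was highest in the same library at 133 CPM, with the next at 111 CPM. HDAC7 was lowest in Control_3D replicate 2 at 164 CPM, with the next at 169 CPM. DNMT1 was highest in clone 5 at 564 CPM, with the next clone at 498 CPM. HDAC9 was highest in the same clone at 9.09 CPM, with the next at 4.77 CPM.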

How the results depend on the processing

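For 27 results of single genes, 327 recomputed values kept their direction; 291 stayed on the same side of the threshold, 18 gained a call and 18 lost one. Under the main settings only BMI1 in Ni_3D and Ni_6W, CBX7 in Ni_6W and HDAC4 in the clones were called. The 18 lost calls were therefore all theirs, and the other results had no call to lose. Counts of the 47 genes called moved more. DESeq2 called 2 in Ni_3D, 1 in Ni_3D+14D against Ni_3D, 8 in Ni_6W, 4 in the clones and 1 in the clones against Ni_6W+2W. With the readthrough row added to BMI1, an alternative chosen after seeing the data, Ni_3D gave 0, beside 654 of all genes. Without Control_3D replicates 1 and 2 together Ni_3D gave 3, beside 1174 of all genes. Without replicates 3 and 4 together Ni_3D gave 0, beside 121 of all genes, while Control_6W against Control_3D gave 1. Without Control_3D replicate 1 and Ni_3D replicate 1 together Ni_3D gave 0. Without Ni_6W replicate 1 and Control_6W replicate 2 together, also chosen after seeing the data, Ni_6W gave 0. Leaving out 1 library at a time gave 0 to 1 in Ni_3D, 0 to 12 in Ni_6W, 0 to 1 in Ni_6W+2W, 0 to 4 in Ni_6W+2W against Ni_6W, 0 to 11 in the clones and 0 to 2 between the controls. The counts over all genes moved too, from 65 to 653 in Ni_3D, 0 to 2871 in Ni_6W, 0 to 117 in Ni_6W+2W, 0 to 1150 in Ni_6W+2W against Ni_6W, 6 to 1504 in the clones and 0 to 134 between the controls. The cause of these moves was not tested. The replicate numbers carry no label that pairs libraries, and same-numbered deviations correlated from -0.09 to 0.27. With the replicate block the counts were 0 in Ni_3D, beside 92 of all genes (BMI1 -1.06, edgeR adjusted p = 0.112). They were 4 in Ni_6W, 0 in the clones and 1 between the controls. Where a count of the 47 stands in this section without one of all genes, it is no result about the 47. Control_3D replicates 3 and 4 and clones 3 to 6 have no same-numbered library in the group compared, so the block sets them aside too. Without Control_3D replicates 3 and 4 together, BMI1 in Ni_3D had -1.07. The effect of the block and that of setting libraries aside cannot be told apart. The counts of all genes called by edgeR and by DESeq2 were 647 and 1890 in Ni_3D, 38 and 449 in Ni_3D+14D against Ni_3D, 368 and 2098 in Ni_6W, 746 and 2002 in the clones, and 4 and 64 in the clones against Ni_6W+2W. They were 0 and 16 in Ni_3D+14D, 0 and 323 in Ni_6W+2W, 0 and 7 in Ni_6W+2W against Ni_6W, and 0 and 49 between the controls.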
